A study of Mus musculus with 2 samples.

Results

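The 9 genes described here, of 20299 genes in the deposited matrix, are *Arg1*, *Arg2*, *Nos2*, *Chil3*, *Mrc1*, *Retnla*, *Saa3*, *Mgl2*, and *Clec10a*. They were taken by name as a set for alternative activation of macrophages and arginine use, which also holds the acute-phase gene *Saa3*. Their unique molecular identifiers (UMIs) were summed over the cells of the 5 myeloid clusters that the authors named R1, M2-like R2, Other R2, pDC, and Neutrophil. These clusters held 1305 of 5470 cells in the WT library and 780 of 1844 cells in the *Vsir*-/- library. In the order given, they had 116, 456, 188, 21, and 524 WT cells and 237, 168, 131, 86, and 158 *Vsir*-/- cells. R1 stands for kidney-resident macrophages and R2 for macrophages that infiltrate the injured kidney. The clusters were made and named by the authors, possibly with the use of some of these genes, so differences between clusters are given as descriptions.

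Macrophages that respond to IL-4 and IL-13 take on a state called alternative activation, and macrophages that respond to IFN-γ and microbial products take on a state called classical activation. The enzymes at the centre of this contrast share a substrate. Arginase splits arginine into ornithine and urea, and inducible nitric oxide synthase turns it into nitric oxide. The remaining genes that are commonly read as signs of alternative activation encode lectin receptors, chitinase-like and resistin-like secreted proteins, and most of them are also used by cells other than macrophages.

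The libraries came from the kidneys of male C57BL/6 mice at 8 weeks of age, either WT or *Vsir*-/-. The *Vsir*-/- line was rederived from archived sperm and carries the knockout in the germ line, so every cell type lacked VISTA, an inhibitory receptor of the B7 family that *Vsir* encodes. Both groups had nephrotoxic serum nephritis (NTN), a glomerular injury that follows immunization with sheep immunoglobulin in Freund's complete adjuvant and an injection of sheep nephrotoxic serum. The comparison asks how the cells of injured kidneys differ without VISTA. Each genotype had 1 library, and the sources used here do not give the number of mice in it, so no test between the genotypes was made and every confidence interval (CI) covers counting error only. PCR copies were collapsed by the UMIs, but the variation between mice was not measured.

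Some facts of the whole series touch all values. *Vsir* had 4278 UMIs in the WT library and 8 in the *Vsir*-/- library. By the labels, the WT library was sorted for CD45+ and the *Vsir*-/- library held kidney cells of every kind, whereas the methods of the study state a CD45+ sort. The labels and the methods also differ in the dose of serum. *Ptprc*, the gene of CD45, was detected in 94.2% of the cells of the WT library and in 73.6% of those of the other. The depths were 32799550 and 18601189 UMIs, with a median of 4726.5 and 6673 UMIs per cell. The libraries shared 5 cell barcodes. Transcripts of other cell types differed between the libraries in the same clusters. In M2-like R2 cells, the summed level of 14 neutrophil markers was 4871 CPM in the WT library and 313 CPM in the *Vsir*-/- library, where CPM are UMIs per 1000000 UMIs of the same cells. The 28 kidney tubule markers summed to 738 and 2163 CPM there, with 7 and 27 of them detected. In that cluster, 201 of 456 cells of the WT library and 5 of 168 cells of the other held at least 2 UMIs of T or B cell markers. In R1 cells the corresponding numbers were 45 of 116 and 18 of 237 cells. B cells, which should lack the 9 genes, gave a level of background, but the B cell cluster of the *Vsir*-/- library was mixed. *Ptprc* was found in 86.1% of its WT cells and 56.8% of its *Vsir*-/- cells. Its 5 B cell markers summed to 6057 and 2224 CPM, its tubule markers to 442 and 7100 CPM, and its 12 resident macrophage markers to 1117 and 1845 CPM. The part of these other cells in its levels of the 9 genes was not tested. In WT B cells (median of 3426 UMIs per cell) each gene was at 0 to 2.01 CPM and in at most 0.722% of cells. In *Vsir*-/- B cells (median of 3597 UMIs per cell) *Mgl2*, *Mrc1*, and *Clec10a* reached 22.9, 15.2, and 11.4 CPM on 12, 8, and 6 UMIs, in 3.41%, 5.68%, and 3.41% of cells, and the other 6 genes stayed at or below 3.81 CPM.

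The cell type labels were checked against markers. R1 cells had *C1qa* at 4570 CPM in the WT library and 5366 CPM in the *Vsir*-/- library, against 31.9 and 378 CPM in M2-like R2 cells. M2-like R2 cells had the classical monocyte gene *Ly6c2* at 2972 and 1673 CPM, and Other R2 cells had the nonclassical monocyte gene *Treml4* at 375 and 453 CPM. Neutrophils had *S100a8* at 121607 and 119598 CPM. The cluster named pDC carried all 12 plasmacytoid markers in both libraries, with *Siglech* at 200 and 205 CPM. However, it also carried 13 and 15 of the 15 markers of conventional dendritic cells, including *Cd209a* at 412 and 375 CPM and *Xcr1* at 11.3 and 190 CPM. R1 cells carried 14 and 12 of these 15 markers, so the count does not set the cluster apart. The summed level of the 15 in the pDC cluster, 1069 and 1553 CPM, was the highest of all clusters in both libraries. The cluster named pDC is therefore called the dendritic cluster below.

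Promoter sequences were available for 5 of the 9 genes (*Chil3*, *Mgl2*, *Mrc1*, *Retnla*, and *Saa3*). The promoters of *Retnla* and *Chil3* are shown because these genes encode secreted proteins that are commonly read together as signs of alternative activation. Each sequence is the 250 bases before the transcription start in RefSeq on GRCm38.p6, read 5′ to 3′ on the strand of the gene. Capitals mark TTC and GAA with any 4 bases between them in *Retnla*, which is the form of motif that STAT6 downstream of IL-4 is known to bind. In *Chil3* they mark TTC and GAA with any 3 bases between them, the form of other STAT proteins. Both motifs read the same on either strand.
Retnla, chr16:48842359-48842608, plus strand: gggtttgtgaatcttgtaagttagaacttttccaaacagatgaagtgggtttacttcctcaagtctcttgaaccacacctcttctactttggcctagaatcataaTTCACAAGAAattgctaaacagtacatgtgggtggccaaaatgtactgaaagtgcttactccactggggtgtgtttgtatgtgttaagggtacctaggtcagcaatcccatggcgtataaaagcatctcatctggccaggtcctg
Chil3, chr3:106167565-106167814, minus strand: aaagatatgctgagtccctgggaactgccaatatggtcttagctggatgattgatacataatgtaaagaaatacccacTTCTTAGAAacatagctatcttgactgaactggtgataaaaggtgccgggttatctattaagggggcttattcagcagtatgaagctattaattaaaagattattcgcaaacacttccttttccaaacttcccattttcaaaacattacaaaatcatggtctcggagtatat
The capitals lie at bases -145 to -136 from the start of *Retnla* and -172 to -164 from the start of *Chil3*. Over 32851 mouse promoter windows of the same length, 5.85% held the former motif and 7.02% the latter. Neither set of letters was in the windows of *Mgl2*, *Mrc1*, and *Saa3*.

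In all, 19 of the 45 combinations of a gene and a cluster reached 20 UMIs over both libraries, and 7 had no UMI in either library. Of these 19, 8 were at least 2-fold higher in the *Vsir*-/- library, 3 were at least 2-fold lower, and 8 were within 2-fold. Of all genes with 20 UMIs, 15.7% (M2-like R2) to 22.4% (R1) were at least 2-fold apart in either direction in the 5 clusters. The M2-like R2 cluster held 5 of the 8 higher combinations, where 8.11% of all genes were higher. Another of the 8, *Retnla* in R1 cells, rested on 1 cell. The ratios below are log2 ratios of CPM, *Vsir*-/- over WT, with 0.5 UMIs added to each sum, and CI stands for the exact 95% interval, which is conditional binomial for ratios, Poisson for levels, and Clopper-Pearson for shares.

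**Figure D1:**
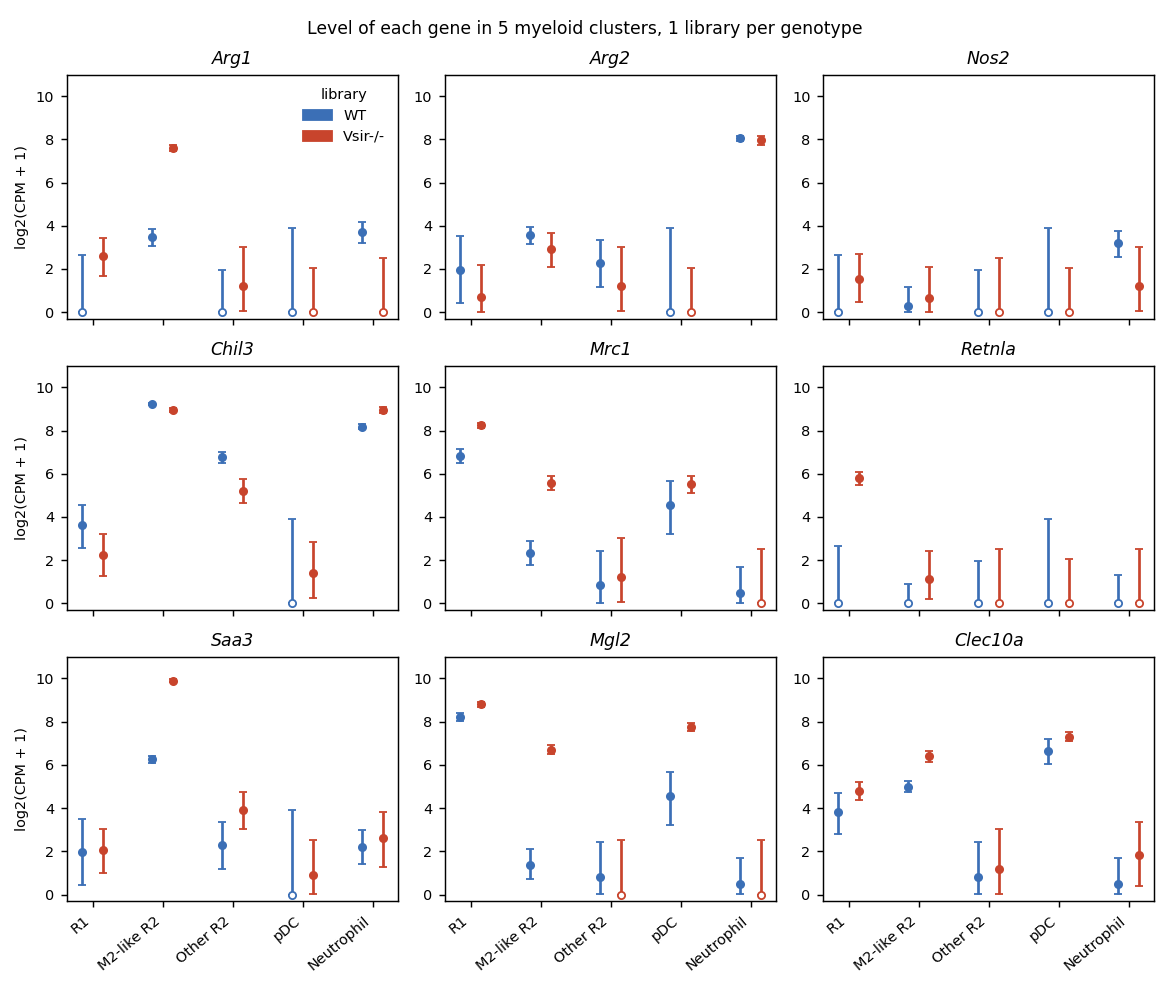
Level of each gene as log2(CPM + 1) in the 5 clusters, with 1 point per library and exact 95% Poisson intervals for counting error. Open points had 0 UMIs. *Arg2* stands highest in neutrophils of both libraries, *Mrc1* and *Mgl2* in R1 cells, and *Saa3* in M2-like R2 cells.

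*Arg1* encodes the cytosolic arginase of the urea cycle and of alternatively activated macrophages. In M2-like R2 cells it had 44 UMIs (10.0 CPM, CI 7.28–13.4) in the WT library and 323 UMIs (193 CPM, CI 172–215) in the *Vsir*-/- library. The log2 ratio was 4.25 (CI 3.81–4.76). In this cluster, 7 of the 9 genes reached 20 UMIs, and 5 of them were at least 2-fold higher and 0 lower. Of all 9751 genes with 20 UMIs in M2-like R2 cells, 8.11% were at least 2-fold higher and 7.61% at least 2-fold lower. *Arg1* was thus present in a small set of cells in both libraries, and that set was larger and richer in the *Vsir*-/- library. In the WT library it covered 9 of 456 cells (1.97%, CI 0.906–3.71%), and without VISTA it covered 21 of 168 cells (12.5%, CI 7.91–18.5%), at medians of 9699 and 10074 UMIs per cell. After every cell was thinned to 1000 UMIs, the shares were 0.489% and 8.81%. The richest cell held 81 of the 323 UMIs. *Arg1* was at 0 to 8 UMIs in the R1, Other R2, and dendritic clusters of either library.

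The cells of the M2-like R2 cluster with *Arg1* were unlike the rest of the cluster in other genes too. In the *Vsir*-/- library, the 12 resident macrophage markers summed to 15610 CPM in the 21 cells with an *Arg1* UMI and to 3631 CPM in the 147 cells without one. Apolipoprotein E (*Apoe*) was at 8063 CPM against 1701 CPM, and fibronectin (*Fn1*) was at 7405 CPM against 610 CPM. In contrast, *Ly6c2*, a marker of freshly recruited monocytes, was at 237 CPM (CI 176–312) against 1880 CPM (CI 1811–1952). The median depths of the 2 sets were 8446 and 10213 UMIs per cell. The classical monocyte markers summed to 9732 and 10640 CPM. This list includes *Fn1*, which alone made up most of the sum in the *Arg1* cells. The closeness of the sums therefore does not hold for the rest of the list. Thus, in the *Vsir*-/- library, the *Arg1* cells had more resident macrophage transcript and less *Ly6c2* than their neighbours in the same cluster. Over all M2-like R2 cells, the resident macrophage markers summed to 2083 CPM in the WT library and 5139 CPM in the *Vsir*-/- library. The cells of the cluster thus differed between the libraries in these markers. The part of this in the ratios of the cluster was not tested.

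*Saa3*, an acute-phase serum amyloid A that macrophages make, was almost confined to the same cluster among the 16 clusters. M2-like R2 cells held 89.1% of its 375 UMIs in the WT library and 96.9% of its 1657 UMIs in the *Vsir*-/- library. The cluster had 334 UMIs (76.0 CPM, CI 68.1–84.6) and 1606 UMIs (959 CPM, CI 912–1007), a log2 ratio of 3.65 (CI 3.49–3.83). However, 977 of the 1606 UMIs were in 1 cell, and the richest WT cell, with 93 UMIs, also held 31 UMIs of T cell and 60 of B cell markers. Without the richest cell of each library, the levels were 55.2 and 380 CPM and the log2 ratio was 2.78. The cells with a *Saa3* UMI were 24 of 456 (5.26%) in the WT library and 33 of 168 (19.6%) in the *Vsir*-/- library, or 2.93% and 10.7% after thinning. The *Vsir*-/- cell with 977 *Saa3* UMIs also carried 26 *Arg1* UMIs.

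*Arg1* and *Saa3* met in the same cells of the *Vsir*-/- library. Among the thinned M2-like R2 cells, 9 of 14 cells with *Arg1* also had *Saa3*, against 8 of 145 cells without *Arg1*. In the WT library 2 thinned cells had *Arg1*, and 1 of them had *Saa3*. These counts describe cells of 1 library and were not tested.

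*Chil3* encodes Ym1, a chitinase-like protein that is secreted by alternatively activated macrophages and also stored in the granules of maturing neutrophils. In M2-like R2 cells it had 2613 UMIs (595 CPM, CI 572–618) in the WT library and 820 UMIs (489 CPM, CI 457–524) in the *Vsir*-/- library. The log2 ratio was -0.28 (CI -0.40 to -0.17), within 2-fold. It was found in 246 of 456 cells (53.9%) and 71 of 168 cells (42.3%), and in 28.9% and 24.5% after thinning. No single cell held more than 8.17% of its UMIs there. Hence the level of *Chil3* was similar while those of *Arg1* and *Saa3* were far apart.

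*Chil3* was seldom seen in the *Vsir*-/- cells with *Arg1*. After thinning, it was in 1 of 14 cells with *Arg1* against 38 of 145 without, and in 0 of 8 cells with *Mgl2* against 39 of 151 without. In the WT library, 1 of the 2 thinned cells with *Arg1* had *Chil3*. These counts are small and were not tested. In the *Vsir*-/- library, cells with *Chil3* had *Ly6c2* at 2309 CPM against 1160 CPM in cells without it. The same contrast in the WT library was 3149 against 2618 CPM. *Apoe* was at 1531 against 3286 CPM in the *Vsir*-/- library and at 1053 against 993 CPM in the WT library. The *Chil3* cells thus had more *Ly6c2* in both libraries, whereas *Apoe* was lower in them in the *Vsir*-/- library and similar in the WT library. The median depths were 11085 and 6261 UMIs per cell in WT cells with and without *Chil3*, and 10661 and 9865 in *Vsir*-/- cells.

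In Other R2 cells, *Chil3* was the only gene of the 9 to reach 20 UMIs. It had 137 UMIs (107 CPM, CI 89.8–126) in the WT library and 28 UMIs (36.2 CPM, CI 24.1–52.4) in the *Vsir*-/- library, a log2 ratio of -1.54 (CI -2.20 to -0.97). This was at least 2-fold lower, as were 9.52% of 7555 genes in this cluster, and 6.71% were at least 2-fold higher. The fold call was lost when cells were weighted equally (-0.78) and after thinning (-0.79). Neutrophil markers summed to 4269 CPM in the WT cells and 277 CPM in the *Vsir*-/- cells of this cluster, and the log2 ratio was -1.47 with cells that carried at least 2 neutrophil granule UMIs left out. The richest WT cell, with 26 *Chil3* UMIs, also held 76 UMIs of B cell markers and 3688 of neutrophil markers.

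*Mrc1* encodes the mannose receptor CD206, an endocytic lectin, and *Mgl2* and *Clec10a* encode the galactose-type lectins CD301b and CD301a. *Mgl2* and *Clec10a* are close relatives, and 109 of 2287 windows of 91 bases (4.77%) in *Mgl2* transcripts also occur in *Clec10a*. The libraries were made by 3′ chemistry, and the position of these windows was not examined. The share of reads that could have been confused is therefore not known. All 3 lectins were at least 2-fold higher in M2-like R2 cells of the *Vsir*-/- library. *Mgl2* had 7 UMIs in WT cells (1.59 CPM, CI up to 3.28) and 173 UMIs in *Vsir*-/- cells (103 CPM, CI 88.5–120), a log2 ratio of 5.92 (CI 4.94–7.35). *Mrc1* had 18 and 78 UMIs (4.10 and 46.6 CPM, log2 ratio 3.48, CI 2.75–4.33). *Clec10a* had 136 and 139 UMIs (31.0 and 83 CPM, log2 ratio 1.42, CI 1.07–1.77). All of these levels lay above those in B cells of the same library, with intervals that did not overlap for *Mrc1* and *Clec10a* in both libraries and for *Mgl2* in the *Vsir*-/- library.

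The lectins were often found together in M2-like R2 cells of the *Vsir*-/- library. There, *Mgl2* was in 13 of 168 cells (7.74%, CI 4.18–12.9%), *Mrc1* in 24 cells (14.3%), and *Clec10a* in 43 cells (25.6%). After thinning, 5 of 8 cells with *Mgl2* also had *Clec10a*, against 3 of 151 without *Mgl2*. Likewise, 4 of 8 cells with *Mgl2* had *Mrc1*, against 2 of 151. None of the 8 had *Arg1* or *Saa3*, which were in 14 and 17 of the 151 cells without *Mgl2*. However, *Arg1* and *Saa3* were each in 1 of 6 cells with *Mrc1* and in 1 of 8 cells with *Clec10a*. The 13 cells with an *Mgl2* UMI had *Ccr2* at 1693 CPM (CI 1497–1908), against 851 CPM in the other cells. *Cd209a*, a gene of monocyte-derived and conventional dendritic cells, was at 138 CPM (CI 86.5–209) against 14.5 CPM. The 9 classical monocyte markers summed to 3261 against 11290 CPM, and the 15 conventional dendritic markers to 784 against 363 CPM.

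**Figure D2:**
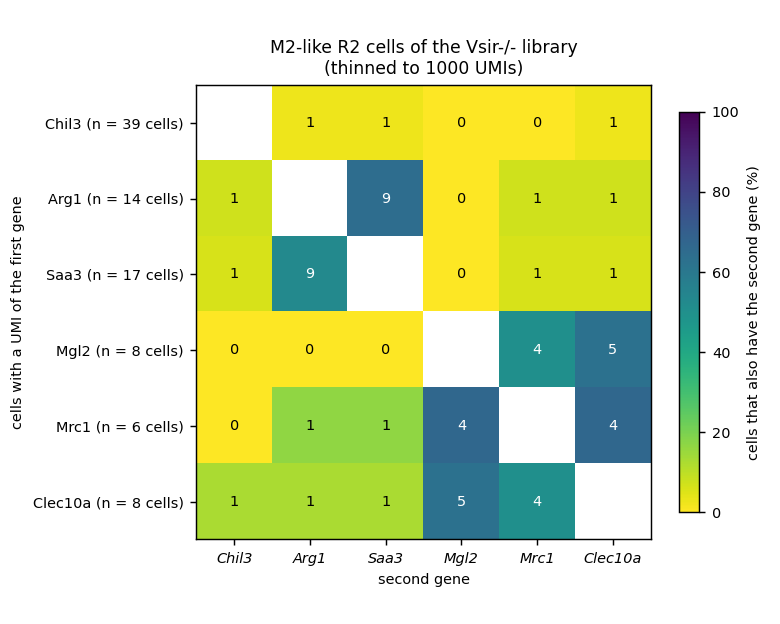
Detection of pairs of genes in M2-like R2 cells of the *Vsir*-/- library, each thinned to 1000 UMIs. Each number counts the cells with the gene of the row that also had the gene of the column, and the color gives their share. *Arg1* and *Saa3* were found together in 9 cells and *Mgl2* and *Clec10a* in 5, whereas *Chil3* was found with *Arg1* in 1.

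R1 cells were the main site of *Mrc1* and *Mgl2*. They held 72.2% of the 108 *Mrc1* UMIs in the WT library and 60.1% of the 803 in the *Vsir*-/- library, and 84.1% of 245 and 61.0% of 1169 *Mgl2* UMIs. *Mrc1* had 78 UMIs (112 CPM, CI 88.7–140) in WT R1 cells and 483 UMIs (302 CPM, CI 275–330) in *Vsir*-/- R1 cells, a log2 ratio of 1.42 (CI 1.08–1.79). In R1 cells, 4 of the 9 genes reached 20 UMIs, of which 2 were at least 2-fold higher and 0 lower, and 13.6% of 8862 genes were at least 2-fold higher and 8.78% at least 2-fold lower. The *Mrc1* call was lost after thinning (log2 ratio 0.44) and with cells that carried T or B cell UMIs left out (0.77), which raised the WT level to 171 CPM. R1 cells also differed in transcripts of non-immune cells, with 6 endothelial markers at 31.7 CPM in the WT library and 995 CPM in the *Vsir*-/- library and the tubule markers at 233 and 2810 CPM, whose part was not tested. *Mrc1* was found in 41 of 116 cells (35.3%) and 138 of 237 cells (58.2%), at medians of 4869 and 5921 UMIs per cell, or in 15.6% (CI 9.36–23.8%) and 25.0% (CI 19.3–31.4%) after thinning.

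*Mgl2* in R1 cells was within 2-fold. It had 206 UMIs (296 CPM, CI 257–340) and 713 UMIs (445 CPM, CI 413–479), with a log2 ratio of 0.58 (CI 0.36–0.82). Its direction turned after thinning (-0.29) and without cells that carried T or B cell UMIs (-0.13). *Clec10a* in R1 cells had 9 and 43 UMIs (13 and 26.9 CPM, log2 ratio 0.99, CI -0.00 to 2.27), and its direction turned after thinning (-0.60). Its *Vsir*-/- interval overlapped that of the B cell cluster. In R1 cells, *Mgl2* was seen at similar shares in cells with and without *Mrc1*. After thinning, 5 of 17 WT cells with *Mrc1* had *Mgl2* against 25 of 92 without, and 9 of 53 against 36 of 159 in the *Vsir*-/- library. The resident macrophage markers were high on both sides of this split, at 30435 CPM in *Vsir*-/- cells with *Mrc1* and 27152 CPM in cells without. *Clec10a* was in 3 thinned WT cells, 2 of the 17 with *Mrc1* and 1 of the 92 without, and in 1 of 30 with *Mgl2* and 2 of 79 without. In *Vsir*-/- R1 cells it was in 1 of 53 with *Mrc1* against 3 of 159, and in 1 of 45 with *Mgl2* against 3 of 167. Whether these pairings differ from those in the M2-like R2 cluster was not tested.

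*Retnla* encodes FIZZ1, a resistin-like protein and a classical product of IL-4 signaling in mouse macrophages. In R1 cells it had 0 UMIs in the WT library, where 3 UMIs would be 4.32 CPM, and 87 UMIs (54.3 CPM) in the *Vsir*-/- library. This was 12.6-fold higher than a floor of 3 UMIs, and the CI of the ratio began at 10.0. All 87 UMIs were in 1 cell. Without it, both libraries were at 0. That cell had 20202 UMIs in all, with 128 *Mgl2*, 10 *Mrc1*, and 7 *Arg1* UMIs and 395 UMIs of the resident macrophage markers, so 4 of the 9 genes met in it. Besides, *Retnla* had 2 UMIs in M2-like R2 cells of the *Vsir*-/- library and 0 in the remaining myeloid clusters of both.

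In the dendritic cluster, 3 of the 9 genes reached 20 UMIs, and all 3 were lectins. *Mgl2* had 6 UMIs (22.7 CPM, CI 8.32–49.3) in 21 WT cells and 254 UMIs (215 CPM, CI 189–243) in 86 *Vsir*-/- cells, a log2 ratio of 3.13 (CI 2.10–4.70). This was the only gene at least 2-fold higher in the cluster, as were 11.9% of 6767 genes, and 0 of the 3 were lower, as were 10.1%. Its WT UMIs were all in 1 cell, which also held 85 UMIs of T cell markers and 15 of B cell markers. Of the *Vsir*-/- UMIs, 94 were in 1 cell, and without the richest cell of each library the levels were 0 and 139 CPM. *Mrc1* had 6 and 53 UMIs (22.7 and 44.8 CPM, log2 ratio 0.88, CI -0.23 to 2.49), and *Clec10a* had 26 and 187 UMIs (98.2 and 158 CPM, log2 ratio 0.66, CI 0.09–1.34). *Clec10a* was at its highest level of all clusters here in both libraries, and its interval did not overlap that of M2-like R2 cells, the next cluster. It was found in 10 of 21 cells (47.6%) and 40 of 86 cells (46.5%).

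The lectins were uneven within the dendritic cluster. Cells were split by transcripts of *Cd209a*, of *Xcr1* or *Clec9a* (type 1 conventional dendritic cells), and of *Siglech*, *Ccr9*, or *Cox6a2* (plasmacytoid cells), a split chosen after the values were seen. In the *Vsir*-/- library, the 27 cells with *Cd209a* only had *Mgl2* at 543 CPM (CI 467–627), *Clec10a* at 357 CPM (CI 296–426), and *Mrc1* at 103 CPM (CI 71.9–144). *Mgl2* was in 8 of these 27 cells, and 94 of its 184 UMIs there were in 1 cell. In the 20 cells with *Xcr1* or *Clec9a* only, all 3 lectins were at 0 UMIs (CI up to 9.81 CPM) at a median of 18203 UMIs per cell. The 10 cells with plasmacytoid transcripts only had *Clec10a* at 183 CPM and *Mgl2* at 39.3 CPM, and 0 *Mrc1* UMIs. The WT library had 4, 1, and 2 such cells, too few to compare, with 19 of its 26 *Clec10a* UMIs in the 4 cells with *Cd209a* only. The mixture of dendritic cells in the cluster differed between the libraries, and its part in the ratios above was not tested.

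*Arg2* encodes the mitochondrial arginase, which kidney tubules also make. It was a neutrophil gene in both libraries. Neutrophils had 654 UMIs (264 CPM, CI 244–285) in the WT library and 193 UMIs (248 CPM, CI 215–286) in the *Vsir*-/- library, a log2 ratio of -0.08 (CI -0.32 to 0.15), which was 0.34 after thinning. They held 90.5% of the 723 WT UMIs and 52.0% of the 371 *Vsir*-/- UMIs. A UMI was present in 332 of 524 cells (63.4%) and 98 of 158 cells (62.0%), at medians of 3565 and 4097 UMIs per cell, and no cell held more than 3.11% of the total. The next myeloid cluster was M2-like R2 at 10.9 CPM (CI 8.06–14.5) in the WT library and 6.57 CPM (CI 3.28–11.7) in the *Vsir*-/- library, a log2 ratio of -0.69 (CI -1.83 to 0.23). The counting intervals of neutrophils and of M2-like R2 cells did not overlap in either library.

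*Chil3* was the other gene of the 9 with a high level in neutrophils. It had 716 UMIs (289 CPM, CI 268–311) in the WT library and 384 UMIs (494 CPM, CI 446–546) in the *Vsir*-/- library, a log2 ratio of 0.78 (CI 0.59–0.96). Unlike *Arg2*, it was found in few cells, 64 of 524 (12.2%) and 18 of 158 (11.4%), with 11.2 and 21.3 UMIs per cell that had it. The highest level of *Chil3* was in M2-like R2 cells of the WT library, whereas neutrophils and M2-like R2 cells did not differ beyond counting error in the *Vsir*-/- library. In *Chil3* transcripts, 114 of 1590 windows of 91 bases (7.17%) also occur in *Chil4* or *Gm6522*. Their position was not examined either, so the share of reads that could have been assigned otherwise is not known.

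The neutrophils with *Chil3* had a different transcript profile from the others. *Camp*, the gene of cathelicidin, was at 10891 CPM in WT cells with *Chil3* and 89.9 CPM in WT cells without, and at 23602 and 469 CPM in the *Vsir*-/- library. *Ltf*, the gene of lactoferrin, was at 5286 against 24.2 CPM and 10365 against 220 CPM. *Ngp*, another granule gene, was at 18244 against 687 CPM and 30706 against 1837 CPM. All of these are granule genes of immature neutrophils. The receptor genes of mature neutrophils went the other way. *Cxcr2* was at 520 against 1109 CPM in the WT library and 219 against 776 CPM in the *Vsir*-/- library, and *Csf3r* was at 362 against 1334 CPM and 85.0 against 933 CPM.

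*Arg2* was lower in the *Chil3* cells, at 122 CPM (CI 96.0–153) against 311 CPM (CI 286–338) in the WT library and at 48.6 CPM (CI 21.0–95.7) against 302 CPM (CI 260–349) in the *Vsir*-/- library. The *Chil3* cells were deeper, with medians of 9218 against 3392 UMIs per cell and 8391 against 3916. After thinning, *Arg2* was found in 5 of 38 WT cells with *Chil3* against 132 of 465 without, and in 0 of 16 *Vsir*-/- cells against 51 of 137. Thus, *Arg2* was found in a smaller share of the neutrophils with *Chil3* than of those without, in both libraries and at equal depth. Thinned cells hold few UMIs, so a gene that is not seen in one may still be expressed. At full depth, the WT neutrophil with the most *Arg2* UMIs (11) also held 3 *Chil3* UMIs.

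**Figure D3:**
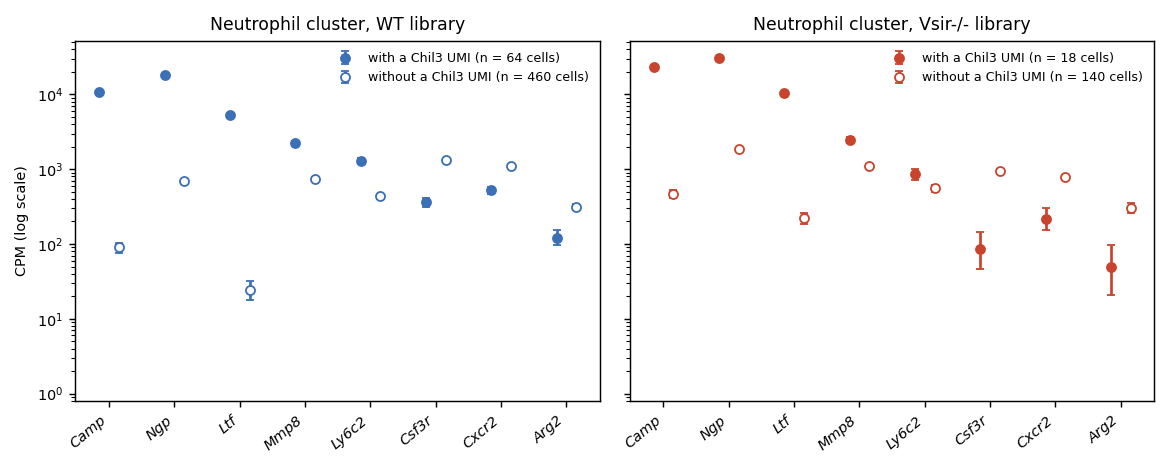
CPM (log scale) of *Camp*, *Ngp*, *Ltf*, *Mmp8*, *Ly6c2*, *Csf3r*, *Cxcr2*, and *Arg2* in neutrophils with and without a *Chil3* UMI. Bars are exact 95% Poisson intervals for counting error. In both libraries *Camp*, *Ngp*, and *Ltf* are higher and *Csf3r*, *Cxcr2*, and *Arg2* are lower in the cells with *Chil3*.

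Of the 4 genes that reached 20 UMIs in neutrophils, 2 were at least 2-fold lower in the *Vsir*-/- library and 0 were higher. Of 7197 genes in this cluster, 10.6% were at least 2-fold lower and 9.99% at least 2-fold higher. *Arg1* had 30 UMIs (12.1 CPM, CI 8.16–17.3) in the WT library and 0 in the *Vsir*-/- library. This was 3.13-fold lower against a floor of 3 UMIs (CI of the ratio up to 0.418). However, 26 of the 30 UMIs were in 1 cell, which had 31238 UMIs in all and 37 UMIs of T cell markers. *Nos2*, the gene of inducible nitric oxide synthase, had 20 UMIs (8.06 CPM) in 12 WT cells and 1 UMI (1.29 CPM) in the *Vsir*-/- library, a ratio of 0.160 (CI 0.00385–0.998). After thinning to equal depth, *Arg1* and *Nos2* had 1 UMI each in the WT library and 0 in the *Vsir*-/- library, so the depth did not allow a comparison per cell.

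*Nos2* was close to absent from the macrophages of both libraries. It had 0 and 3 UMIs in R1 cells, 1 and 1 in M2-like R2 cells, and 0 and 0 in Other R2 and dendritic cells. In M2-like R2 cells of the *Vsir*-/- library, the 1 *Nos2* UMI stood beside 323 *Arg1* UMIs. The interval of that *Nos2* level reached 3.33 CPM.

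**Figure D4:**
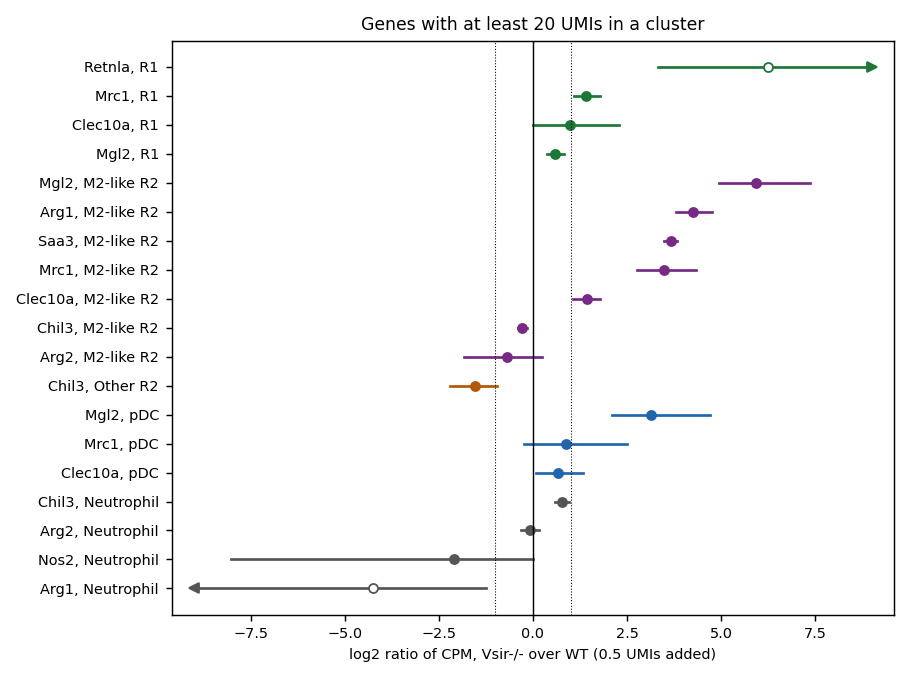
Log2 ratio of CPM, *Vsir*-/- over WT, for the 19 combinations of gene and cluster with at least 20 UMIs, with exact 95% intervals for counting error. Colors mark the clusters, dotted lines mark 2-fold, and open points with arrows had 0 UMIs in 1 library. M2-like R2 has 5 points beyond 2-fold, all on the higher side.

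The spread of UMIs over cells sets how far each value can be read. For *Arg2* in neutrophils and *Chil3* in M2-like R2 cells of the WT library, the richest cell held 1.68% and 2.33% of the UMIs. The corresponding shares in the *Vsir*-/- library were 26.0% for *Mgl2* and 25.1% for *Arg1* in M2-like R2 cells, and 60.8% for *Saa3*. Without the richest cell of each library, the calls of *Arg1*, *Saa3*, *Mgl2*, *Mrc1*, and *Clec10a* in M2-like R2 cells all stood. After thinning, which leaves fewer UMIs, these calls did not all stand. *Mrc1* was then in 0 of 409 WT and 6 of 159 *Vsir*-/- cells, and *Clec10a* in 10 and 8.

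**Figure D5:**
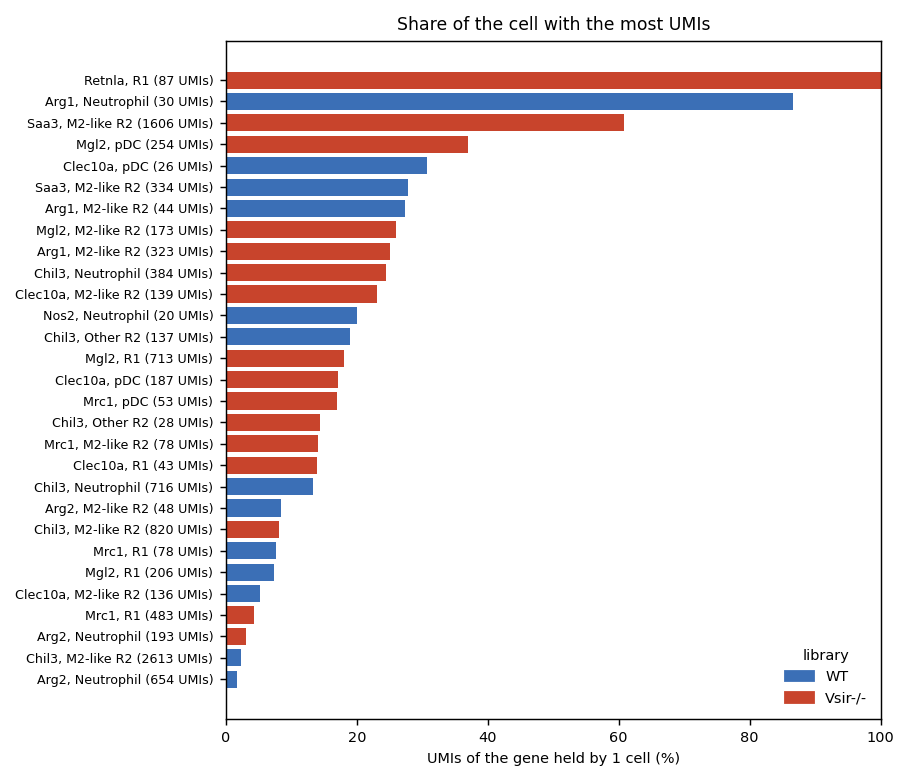
Share of a gene's UMIs held by the single richest cell (percent), for each gene, cluster, and library with at least 20 UMIs. The bars run from 1.68% for *Arg2* in WT neutrophils to 100% for *Retnla* in *Vsir*-/- R1 cells.

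The genes most like each of the 9 were sought over the 29 combinations of cluster and library with at least 20 cells, by Pearson's r of log2(CPM + 1) among 12699 genes. The points share libraries and differ in depth, so r is a description. *Arg2* was most like *Lrg1*, *Steap4*, and *Lcn2* (r of 0.94, 0.90, and 0.87), and *Chil3* was most like *Clec4e*, *Msrb1*, and *Hp* (0.92, 0.90, and 0.90). *Mrc1* was most like *Sh3pxd2b*, *Arhgap22*, and *Creb5* (0.96, 0.94, and 0.90), *Mgl2* like *Clec4b1*, *Slamf9*, and *Rab7b* (0.86, 0.86, and 0.86), and *Clec10a* like *Batf3*, *Cd209a*, and *Rab7b* (0.92, 0.91, and 0.86). *Saa3* was most like *Arhgef37*, *Slc7a2*, and *Mucl1* (0.78, 0.76, and 0.75), and *Arg1* like *Lif*, *Sept8*, and *Ero1l* (0.71, 0.63, and 0.63). Among the 9 genes themselves, the lectins were most alike (*Mgl2* and *Mrc1* 0.84, *Mrc1* and *Clec10a* 0.75, *Mgl2* and *Clec10a* 0.74), followed by *Arg2* and *Chil3* (0.69) and *Chil3* and *Saa3* (0.67). *Arg1* reached 0.38 with *Saa3* and at most 0.30 with the others. *Nos2* and *Retnla* had under 100 UMIs in these units and were left out.

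Further genes of arginine and polyamine metabolism were mostly within 2-fold. Of 29 listed genes, 24 reached 20 UMIs in M2-like R2 cells, of which 5 were at least 2-fold higher, against 8.11% of all genes, and 0 lower. Their median log2 ratio was 0.17, against 0.01 for all genes. The arginine transporter *Slc7a2* had 0 UMIs in WT cells and 120 UMIs (71.6 CPM) in *Vsir*-/- cells. This was 105-fold higher against a floor of 3 UMIs (log2 ratio CI from 6.39). The number of cells that held the *Slc7a2* UMIs is not given. *Ddah2*, which breaks down an inhibitor of nitric oxide synthases, was higher in M2-like R2 cells (5 and 17 UMIs, log2 ratio 3.06, CI 1.66–4.95) and in R1 cells (4 and 58 UMIs, 2.50, CI 1.22–4.58). Tubule markers were at 738 and 2163 CPM in M2-like R2 cells and at 233 and 2810 CPM in R1 cells, whose part was not tested. In R1 cells, 3 of 22 listed genes were at least 2-fold higher, close to the 13.6% of all genes, and 0 were lower. In neutrophils, 5 of 17 were higher, against 9.99% of all genes, and 0 lower, including *Ass1*, which makes the precursor of arginine (12.1 and 183 CPM), and *Gatm* (2.42 and 126 CPM), of the creatine pathway. Both are also strong kidney tubule genes, and the tubule markers in neutrophils were at 139 CPM in the WT library and 4270 CPM in the *Vsir*-/- library, whose part was not tested. *Gatm* was higher in Other R2 cells too (3 and 45 UMIs, log2 ratio 4.43, CI 3.0–6.97), as was *Ass1* (57 and 129 UMIs, 1.90). Tubule markers in Other R2 cells were at 848 and 3376 CPM, whose part was not tested.

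Other genes of alternative activation were often higher in M2-like R2 cells of the *Vsir*-/- library. Of 21 genes with 20 UMIs, 13 were at least 2-fold higher (8.11% of all genes) and 2 lower (7.61%), with a median log2 ratio of 1.05 against 0.01 for all genes. *Igf1*, a growth factor of repair macrophages, had 1 and 57 UMIs (log2 ratio 6.65, CI 4.69–12.6). The chemokine *Ccl17* had 0 and 51 UMIs, 44.6-fold higher against a floor of 3 UMIs (log2 ratio CI from 5.13). The number of cells that held the *Igf1* and *Ccl17* UMIs is not given. The lower genes were *Retnlg* (502 and 23 UMIs, log2 ratio -3.03, CI -3.73 to -2.46) and *Chil1* (21 and 1 UMIs). *Retnlg* is a neutrophil gene, and it was also lower in R1 and Other R2 cells (-2.64 and -3.19). The neutrophil markers, which include *Retnlg*, summed to 4871 and 313 CPM in M2-like R2 cells, whose part was not tested. In R1 cells, 8 of 18 genes were higher (13.6% of all genes) and 1 lower (8.78%), with a median of 0.86 against -0.01. *Ccl24* and *Vegfa* had 0 UMIs in WT R1 cells and 39 and 38 UMIs in *Vsir*-/- R1 cells. Against a floor of 3 UMIs they were 5.64-fold and 5.50-fold higher (log2 ratio CI from 2.13 and 2.09). The number of cells that held these UMIs is not given. In R1 cells the tubule markers were at 233 and 2810 CPM and the endothelial markers at 31.7 and 995 CPM, whose part was not tested. In the dendritic cluster 5 of 11 were higher (11.9% of all genes) and 2 lower (10.1%), in Other R2 cells 6 of 14 (6.71%) and 1 (9.52%), and in neutrophils 2 of 13 (9.99%) and 2 (10.6%). *Il1rn* and *Il10* were the highest in Other R2 cells (log2 ratios of 2.47 and 1.89). *Ccl17* was higher in the dendritic cluster as well (0 and 97 UMIs, 7.23-fold against a floor of 3 UMIs, log2 ratio CI from 2.53).

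The receptors and regulators of IL-4 and IL-13 signaling were mostly within 2-fold. In M2-like R2 cells, 3 of 20 genes were at least 2-fold higher and 1 lower, against 8.11% and 7.61% of all genes, with a median of 0.00. The lower gene was *Irf4*, a transcription factor of alternative activation, with 63 and 10 UMIs (log2 ratio -1.21, CI -2.39 to -0.29). B cell markers in this cluster summed to 345 CPM in the WT library and 11.3 CPM in the *Vsir*-/- library. Their part in the *Irf4* ratio was not tested. *Cish*, a STAT target that dampens cytokine signals, was higher (19 and 20 UMIs, 1.46, CI 0.48–2.45). In R1 cells, 1 of 17 was higher (*Egr2*, 1.20, CI 0.03–2.84) and 0 were lower, against 13.6% and 8.78% of all genes. The median there was -0.50, against -0.01 for all genes. In the dendritic cluster 1 of 16 was higher and 3 lower, against 11.9% and 10.1% of all genes, with a median of -0.53 against -0.07. The higher gene was *Batf3*, a factor of type 1 conventional dendritic cells, at 45.3 and 148 CPM. In neutrophils 0 of 16 were higher and 4 lower, against 9.99% and 10.6% of all genes, with a median of -0.51 against -0.06. In Other R2 cells 0 of 15 were higher and 1 lower, against 6.71% and 9.52%, with a median of -0.16 against -0.06. The lower gene there was *Myc* with 20 and 0 UMIs, 4.02-fold lower against a floor of 3 UMIs (log2 ratio CI up to -1.57). B cell markers in Other R2 cells summed to 1288 CPM in the WT library and 7.76 CPM in the *Vsir*-/- library. Their part in the *Myc* ratio was not tested.

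Among genes of classical activation, more were higher than lower in each cluster but neutrophils, though in R1 cells the shares were close to those of all genes. In M2-like R2 cells, 5 of 23 genes were at least 2-fold higher and 1 lower, against 8.11% and 7.61% of all genes, with a median of 0.29. *Cxcl9*, a chemokine induced by IFN-γ, had 13 and 188 UMIs (2.96 and 112 CPM, log2 ratio 5.19, CI 4.44–6.18), and the guanylate-binding protein gene *Gbp2* was at 94.9 and 237 CPM. The number of cells that held the *Cxcl9* UMIs is not given. The lower gene was *Il6* (20 and 2 UMIs, a log2 ratio of -1.64, CI -5.07 to 0.11). In R1 cells, 3 of 17 were higher and 1 lower, close to the 13.6% and 8.78% of all genes, with a median of 0.16. *Cxcl10* was at 20.1 and 108 CPM there. Other R2 cells had 9 of 20 higher and 3 lower, against 6.71% and 9.52%, and the dendritic cluster 6 of 17 and 1, against 11.9% and 10.1%. Their medians were 0.57 and 0.07. In neutrophils 0 of 20 were higher and 5 were lower, against 9.99% and 10.6%, led by *Ccl5* (509 and 20.6 CPM), a gene of T and NK cells. T cell markers in neutrophils summed to 451 CPM in the WT library and 55.3 CPM in the *Vsir*-/- library, and their part was not tested.

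No other acute-phase gene was at least 2-fold higher in M2-like R2 cells, where *Saa3* was higher. Of 13 listed genes, 5 reached 20 UMIs in this cluster, of which 0 were higher and 3 lower, against 8.11% and 7.61% of all genes. The lowest were *S100a9* and *S100a8*, with log2 ratios of -5.51 and -4.17. Both are neutrophil genes and were also lower in R1 cells (-4.04 and -4.19), Other R2 cells (-4.00 and -5.35), and the dendritic cluster (-1.37 and -1.62). They are themselves part of the neutrophil marker list, and the part of neutrophil transcript in these ratios was not tested. In R1 cells 3 of 6 acute-phase genes were higher and 3 lower, against 13.6% and 8.78% of all genes. The highest were ceruloplasmin (*Cp*, 3 and 47 UMIs, log2 ratio 2.56, CI 1.13–5.09) and *Lcn2* (3 and 25 UMIs, 1.66, CI 0.14–4.23). The tubule markers in R1 cells were at 233 and 2810 CPM, whose part was not tested. In Other R2 cells 1 of 6 was higher, haptoglobin (*Hp*, 354 and 736 CPM, 1.06), and 3 were lower, against 6.71% and 9.52% of all genes. In neutrophils themselves, 0 of 6 acute-phase genes were beyond 2-fold, against 20.6% of all genes in either direction.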

How the data were processed

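Kidney cells of mice with NTN were measured by droplet-based scRNA sequencing (10x Genomics 3′ chemistry) in 1 WT and 1 Vsir-/- library. The deposited matrix holds raw UMI counts of both libraries, in whole numbers and not normalized. The authors made them with Cell Ranger (version 3.1.0), filtered genes and cells, merged the libraries in Seurat (version 3.2.3) under R (version 4.0.3), and named 16 clusters. The submitters' processing notes name the build mm9, and no gene coordinates from it were used. The deposited percent of mitochondrial UMIs per cell (at most 10%) served only for an alternative limit of 5%. The deposited plot coordinates, a score, were not used.

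For each cluster and library, the UMIs of a gene were added up and expressed per 1000000 UMIs (CPM). A gene was compared when it had at least 20 UMIs in the cluster over both libraries, and a log2 ratio beyond 1 (2-fold, 0.5 UMIs added) was called higher or lower. With 1 library per genotype, no test was made, and cells were not used as replicates. Intervals are exact Poisson, Clopper-Pearson, and conditional binomial intervals at the 95% level, and a count of 0 was taken to allow 3 counts. A fold against this floor leaves out the counting error of the other count. Cells were thinned to 1000 UMIs with a fixed seed, which left out 167 WT and 78 Vsir-/- cells. Doublets were not removed here, and for the authors' matrix their treatment is not given in the methods or labels read. The 9 genes, the gene lists, and the alternatives were chosen with earlier results of these data known. From each list, the text names in each cluster at most the 2 highest and 2 lowest genes, and only those beyond 2-fold. For likeness it names the 3 genes with the highest r, and otherwise markers only. The steps were tested on simulated data. Promoters were taken from the RefSeq table of GRCm38.p6, and shared windows of 91 bases, the length of the RNA read, from GENCODE transcripts. Scripts ran in Python 3.11.15 (scipy 1.17.1, pandas 2.3.3, numpy 2.4.6, and matplotlib 3.10.9).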

Additional observations from a re-analysis of the deposited data

Results flagged for a closer look

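*Arg1* and *Chil3* had ratios of opposite direction in different clusters, and the differences between clusters were not tested, because each genotype had 1 library. *Arg1* had a log2 ratio of 4.25 in M2-like R2 cells and -4.26 in neutrophils, where the latter rests on 30 WT UMIs, 26 of them in 1 cell, against 0. *Chil3* had a log2 ratio of 0.78 in neutrophils, -0.28 in M2-like R2 cells, and -1.54 in Other R2 cells.

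Outside the 5 myeloid clusters, levels higher than that of B cells of the same library were seen in the following cells, though not always beyond counting error. *Arg1* was at 233 CPM (CI 188–285) in WT ILC2 and 330 CPM (CI 243–438) in *Vsir*-/- ILC2, in 39 of 79 and 14 of 19 cells, and these are its highest levels among all clusters of either library. It was also at 13.2 CPM in WT EM-like CD4+ T cells, on 37 UMIs, and at 9.95 CPM in WT proliferating cells, on 20 UMIs.

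In the *Vsir*-/- library, the non-EM-like CD4+ T cell cluster had *Arg2* at 29.1 CPM, *Mrc1* at 20.7 CPM, and *Nos2* at 4.35 CPM, on 134, 95, and 20 UMIs. Only 30.4% of its 349 cells had a UMI of *Ptprc*, and 233 cells had no T cell transcript. Those 233 cells held 125 of the *Arg2* UMIs, 65 of the *Mrc1* UMIs, and 15 of the *Nos2* UMIs. Proliferating cells of the same library had *Mrc1* at 18.9 CPM, *Nos2* at 10.6 CPM, and *Arg2* at 5.17 CPM, on 84, 47, and 23 UMIs, and 37.0% of those 189 cells had a UMI of *Ptprc*. The 47 *Nos2* UMIs, in 22 cells, were more than the 5 in all 5 myeloid clusters of that library. Of the levels in these CD4+ and proliferating clusters, only *Arg2* in the CD4+ cluster (CI 24.4–34.5) lay clear of the B cell interval (up to 13.8 CPM). The intervals of the others overlapped those of the B cells.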

How the results depend on the processing

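The 19 log2 ratios were recomputed under 9 alternatives, which gave 171 values, of which 140 stayed within the counting interval of the reported value and 31 left it. The direction turned in 7 values. Of these, 3 were of ratios reported as at least 2-fold, *Arg1* and *Nos2* in neutrophils after thinning (0.13 each, with 1 WT UMI against 0) and *Retnla* in R1 cells without its richest cell (-1.19, with 0 UMIs in both libraries). The other 4 were of ratios within 2-fold, after thinning for *Mgl2* (-0.29) and *Clec10a* (-0.60) in R1 cells and *Arg2* in neutrophils (0.34), and without cells that carried T or B cell UMIs for *Mgl2* in R1 cells (-0.13). The number of combinations at least 2-fold higher, 8 as reported, became 3 after thinning and 15 with no minimum of UMIs. The number at least 2-fold lower, 3 as reported, became 0 after thinning, 1 without the richest cells, 1 with a minimum of 50 UMIs, and 6 with no minimum. Thinning leaves fewer UMIs, so fewer genes reach 20, and the filters change the genes counted by their construction. A limit of 5% mitochondrial UMIs, totals without mitochondrial and tubule UMIs, centring on the median of all genes, and 1 UMI added in place of 0.5 kept all 19 ratios within their intervals. So did leaving out macrophage and dendritic cells with at least 2 neutrophil granule UMIs, an alternative chosen after seeing the data. It was not applied to neutrophils, whose 4 ratios could not change, and it left out 41 of 456 WT cells of the M2-like R2 cluster. Leaving out cells with at least 2 T or B cell UMIs moved 7 of the 19 ratios out of their intervals. In the M2-like R2 cluster that filter removed 201 of 456 WT cells and 5 of 168 *Vsir*-/- cells. No paired analysis was possible because each genotype had 1 library, and for the same reason no library could be left out. Depth limits *Nos2*, *Retnla*, and all genes in the 21 dendritic cells of the WT library.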
